A study of Mus musculus with 9 samples.

Results

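The chains of complement C1q are encoded by the mouse genes C1qa, C1qb and C1qc. All 3 genes of that name were taken from the 18193 genes with a symbol of their own in the platform annotation, and they are read by 5 of 45037 probe sets. The members were chosen by measured values, since earlier results of these arrays showed them higher in lymphoma, so the difference between the groups is described here and not tested. RNA of frozen spleen tissue had been hybridised to 1-colour Affymetrix mouse arrays, 1 array a sample. The groups are 5 splenic lymphomas of Sca1-MALT1 transgenic mice and 4 spleens of healthy wild-type mice. The comparison asks how a spleen with lymphoma in this model differs from healthy spleen. MALT1 carries signals from antigen receptors to the NF-kB transcription factors and also cleaves other proteins, and Sca1 is a surface protein of blood stem cells and of some lymphocytes. The transgene is named for Sca1 and MALT1, and the labels do not say which cells carry it. Age, sex, strain and treatment are not given in the labels, nor is the share of tumour cells in each piece of tissue, and the arrays are not said to come from separate animals. P-values of other genes therefore measure the spread between these samples, and the number of arrays limits their precision.

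C1q is the recognition part of the first component of complement. Each unit is a bundle of A, B and C chains with a collagen-like stalk and globular heads, and the heads bind IgM or IgG on a surface, pentraxins and dying cells. Binding activates the proteases C1r and C1s, which cleave C4 and C2 and so lead to C3. Unlike most complement proteins, which come from the liver, C1q is made mainly by tissue macrophages and dendritic cells, and in the spleen it is known as a product of macrophages. In bulk tissue, more cells of a type and more RNA per cell cannot be told apart.

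The 3 genes lie next to each other on chromosome 4, in the order C1qb, C1qc and C1qa, with no other gene of the RefSeq table (assembly GRCm38.p6) between them. The promoters are shown because the chains are encoded side by side and all stood higher in lymphoma. Shared regulation of the chains was not tested. RefSeq promoter sequences of build GRCm38.p6 matched 2 of the 3 genes, C1qb (chr4:136886151-136886450, minus strand) and C1qc (chr4:136892865-136893164, minus strand), each from 250 bases before to 50 bases after the start. Capitals mark matches to the motifs named after the sequences.
C1qb: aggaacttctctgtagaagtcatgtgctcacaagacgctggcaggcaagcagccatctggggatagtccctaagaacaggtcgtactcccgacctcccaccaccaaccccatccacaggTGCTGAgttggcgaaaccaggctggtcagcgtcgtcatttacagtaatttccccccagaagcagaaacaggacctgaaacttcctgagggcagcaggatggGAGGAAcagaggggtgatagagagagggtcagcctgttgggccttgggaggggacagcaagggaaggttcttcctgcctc
C1qc: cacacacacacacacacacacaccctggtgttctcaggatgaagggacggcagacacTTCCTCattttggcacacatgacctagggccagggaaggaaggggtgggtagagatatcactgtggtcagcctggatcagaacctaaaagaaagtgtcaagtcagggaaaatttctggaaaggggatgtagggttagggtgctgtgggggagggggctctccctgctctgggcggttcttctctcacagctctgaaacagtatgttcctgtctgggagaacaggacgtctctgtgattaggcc
The motifs were searched on both strands. GAGGAA is a core of the sites of PU.1, the myeloid transcription factor encoded by Spi1, and TGCTGA is part of the element that Maf proteins bind. Also searched were an interferon-stimulated response element, spelled GAAA, any pair of bases and GAAA again, and a composite element of ETS and IRF factors, spelled GGAA, any pair of bases and GAAA. The composite element can overlap GAGGAA, with which it shares letters. GAGGAA occurred 1 time in C1qb, from base -30 to -25 relative to the start. It also occurred 1 time in C1qc, on the opposite strand from base -193 to -188. Of all 32851 promoters of 300 bases, 28.3% held the GAGGAA core. In C1qb the motif TGCTGA occurred from base -131 to -126 and is found in 19.5% of all promoters, with 0 matches in C1qc. The 2 interferon-type motifs had 0 matches in either promoter, against 3.44% (interferon-stimulated element) and 2.72% (composite element) of all promoters.

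All values are on the log2 scale of the deposited RMA values, on which 1 unit is a doubling, and levels of different probe sets cannot be set against each other. C1qa, the A chain, stood at 11.71, 11.16, 11.26, 11.71 and 12.001 in lymphomas 1 to 5, against 9.78, 9.45, 9.63 and 9.69 in wild-type spleens 1 to 4 (probe set 1417381_at). The lowest lymphoma lay 1.38 above the highest wild-type spleen. C1qc, the C chain, stood at 11.97, 11.69, 11.35, 11.63 and 12.27 in lymphomas, against 9.81, 9.36, 9.21 and 9.39 in wild-type spleens (1449401_at). Here the gap between the groups was 1.54. Means were 11.57 ± 0.35 in lymphoma and 9.64 ± 0.14 in wild-type for C1qa (SD, n = 5 and 4). For C1qc they were 11.78 ± 0.35 in lymphoma and 9.44 ± 0.26 in wild-type (SD, n = 5 and 4). The differences of 1.93 and 2.34 correspond to 3.81-fold and 5.06-fold higher levels in lymphoma.

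C1qb, the B chain, is read by 3 probe sets, and all 3 showed the same separation. Probe set 1437726_x_at, which has the highest mean, gave 12.45, 11.63, 11.64, 12.05 and 12.75 in lymphomas, against 10.18, 9.55, 9.69 and 9.40 in wild-type spleens. Probe set 1434366_x_at gave 11.79, 11.14, 11.24, 11.58 and 12.25 in lymphomas, against 9.95, 9.31, 9.40 and 8.79 in wild-type spleens. The ending _x_at marks probe sets some of whose probes may also match other transcripts. Probe set 1417063_at, without that ending, gave 11.33, 11.06, 11.22, 10.99 and 11.96 in lymphomas, against 9.54, 8.87, 8.31 and 7.88 in wild-type spleens. The lymphomas were about as close together on it as on the other probe sets (range 0.97), but the wild-type spleens spread over 1.66, against 0.78 on 1437726_x_at and 1.16 on 1434366_x_at. The differences were 2.40 for 1437726_x_at (5.28-fold), 2.23 for 1434366_x_at (4.70-fold) and 2.66 for 1417063_at (6.34-fold), so the size of the C1qb difference depended on the probe set while its direction did not.

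In all 5 probe sets every lymphoma lay above every wild-type spleen, which held for 2.39% of the 45037 probe sets. Over genes, 7.33% of 18193 had groups that did not overlap in either direction. Since the chains were chosen for this contrast, nothing is read from these shares. By the size of the difference C1qb ranked 17, C1qc 20 and C1qa 35 of 18193 genes. For each gene, the probe set that was brightest on average is used here and below. The plot of the C1q values shows both groups on every probe set.

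**Figure D1:**
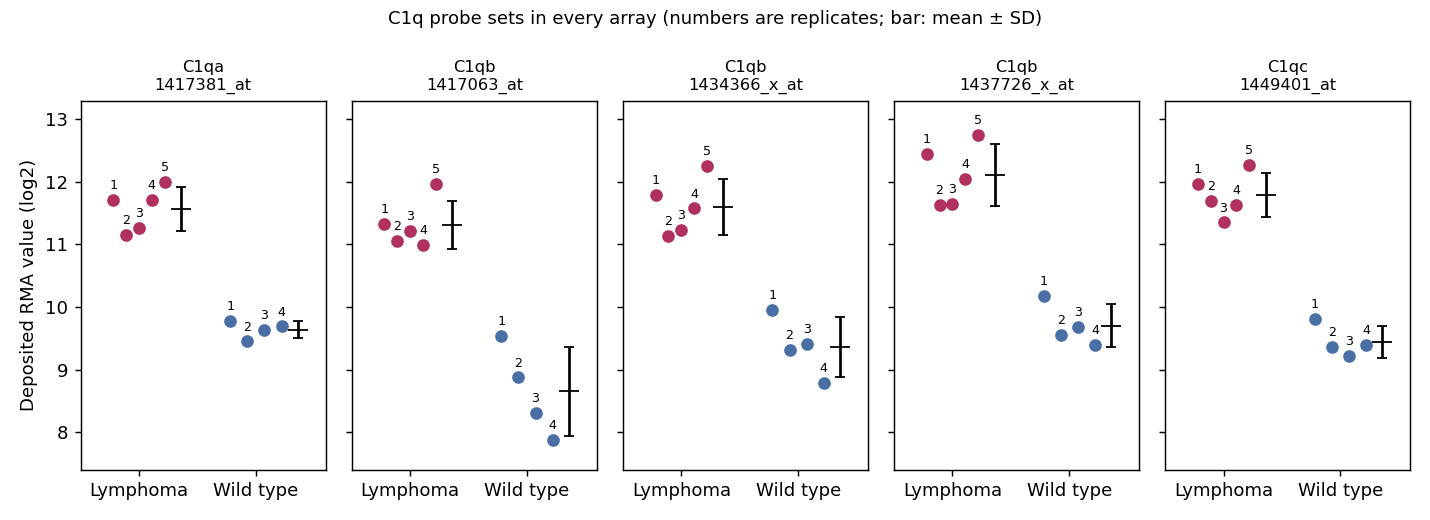
Deposited RMA values (log2, vertical axis) of the 5 C1q probe sets in lymphomas and wild-type spleens, 1 point an array, with the replicate number above it and the mean ± SD beside each group. All lymphomas lie above all wild-type spleens on each probe set, and the wild-type spleens spread most on 1417063_at, over 1.66.

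Array by array all chains stood higher in every lymphoma than in any wild-type spleen, by amounts that differed between chains. Averaged over the chains and set against the wild-type mean, C1q stood at 2.45, 1.90, 1.82, 2.20 and 2.74 in lymphomas 1 to 5, against 0.33, -0.14, -0.08 and -0.10 in wild-type spleens 1 to 4. Lymphoma 5 was the highest lymphoma and wild-type spleen 1 the highest wild-type spleen on all 5 probe sets. Below lymphoma 5 the order was less firm. Lymphoma 1 came next on 4 probe sets, whereas the lowest was lymphoma 2 on C1qa and both _x_at probe sets of C1qb, lymphoma 3 on C1qc and lymphoma 4 on 1417063_at. Lymphomas 2 and 3, at 1.90 and 1.82 in the mean of the chains, lay closer together than the SD of 0.38 among the 5 lymphomas.

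With C1qb read by 1437726_x_at, the deviations of the chains within an array lay 0.27 to 0.73 apart in lymphomas. In wild-type spleens they lay 0.10 to 0.36 apart. On 1417063_at C1qb deviated further from C1qa in some arrays, at 3.31 against 2.36 in lymphoma 5 and -0.77 against 0.05 in wild-type spleen 4. C1qa had the smallest deviation of the chains in 5 of 5 lymphomas. Whether C1qb or C1qc had the largest depended on the C1qb probe set. C1qb led in 4 of 5 lymphomas on 1437726_x_at, in 5 on 1417063_at and in 2 on 1434366_x_at. The log ratio between any pair of the 5 probe sets overlapped between lymphomas and wild-type spleens in 10 of 10 pairs, so no ratio between chains or probe sets separated the groups. No correlation between the chains is given, since the groups stand apart and hold only 5 and 4 arrays. The plot by array sets the chains beside macrophage genes.

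**Figure D2:**
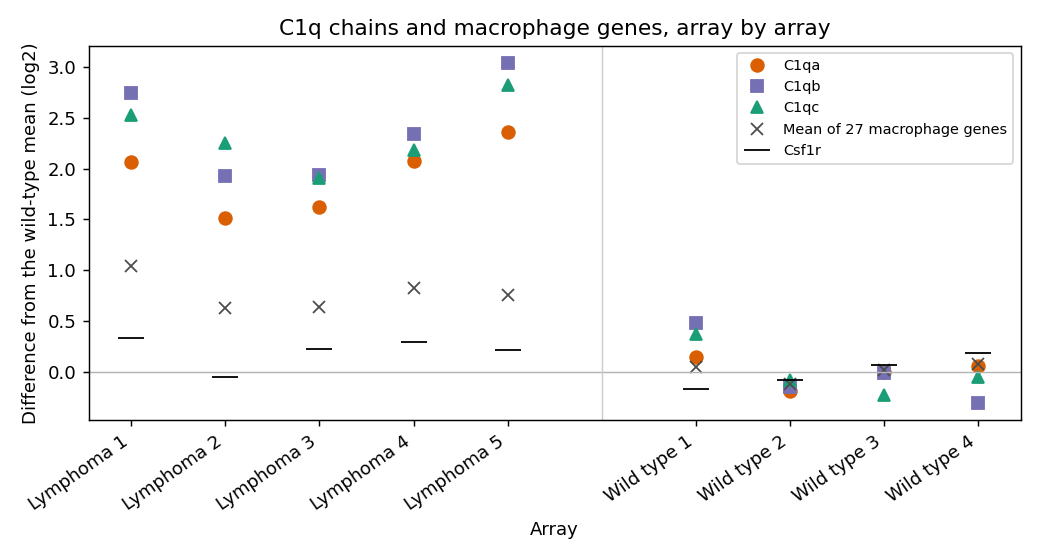
Difference of each array from the wild-type mean (log2, vertical axis) for C1qa, C1qb and C1qc (1 probe set a chain), for the mean of 27 macrophage genes and for Csf1r. In lymphomas the chain mean lies between 1.82 and 2.74, the mean of the macrophage genes between 0.62 and 1.04 and Csf1r between -0.05 and 0.33.

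Of the genes of macrophages, the known source of C1q in spleen, many were also higher in lymphoma, nearly all by less than C1q. Of 27 listed macrophage genes limma called 10 higher and 0 lower at an adjusted p under 0.05, against 0.407% of all 18193 genes called higher. The 10 genes were Fcgr3, Hmox1, Spic, Slc40a1, Ms4a7, Cd68, Axl, Vcam1, Sirpa and Ctsb, with adjusted p-values (limma, Benjamini-Hochberg) between 0.00463 and 0.0479 and differences between 0.61 and 1.64. The median difference of the list was 0.67, against 0.00 over all genes, and 14 of the 27 had groups that did not overlap, against 3.29% of all genes with every lymphoma higher. The list was written with earlier results of these arrays known, so its count is no independent evidence of a direction.

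Several of the called genes mark the red pulp macrophages that break down old red cells. Spic, a transcription factor these macrophages need, stood at 10.21, 8.96, 9.09, 9.77 and 9.61 in lymphomas, against 8.18, 7.74, 8.23 and 8.44 in wild-type spleens. It rose by 1.38 ± 0.25 (SE, limma adjusted p 0.0479). Hmox1, which opens the haem ring, stood at 10.85, 10.26, 9.87, 11.21 and 9.85 in lymphomas, against 8.70 to 8.81 in wild-type spleens. It rose by 1.63 ± 0.27 (SE, limma adjusted p 0.0361), and Slc40a1, the iron exporter, rose by 1.21 ± 0.20 (SE, limma adjusted p 0.0361). With each of the 9 arrays left out in turn, the calls of Spic and Slc40a1 were lost 6 times and that of Hmox1 5 times. The array order was not that of C1q: lymphoma 4 was highest for Hmox1 and lymphoma 1 for Spic and Slc40a1, while lymphoma 5 was lowest for Hmox1.

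Genes of macrophages at large differed among themselves. Cd68, a lysosomal glycoprotein, stood at 10.18, 10.23, 10.27, 10.83 and 10.49 in lymphomas, against 9.31 to 9.53 in wild-type spleens, and rose by 0.996 ± 0.13 (SE, limma adjusted p 0.0217). Fcgr3, a low-affinity receptor for IgG, rose by 1.64 ± 0.29 (SE, limma adjusted p 0.0415), with its highest values of 10.73 and 10.30 in lymphomas 4 and 1. Csf1r, the receptor of the macrophage growth factor, stood at 13.58, 13.20, 13.48, 13.55 and 13.47 in lymphomas, against 13.08, 13.17, 13.32 and 13.44 in wild-type spleens. These groups overlap, and the difference of 0.20 did not pass (limma adjusted p 0.411). Adgre1, a surface marker of mouse macrophages, likewise did not pass, with a difference of 0.49 (limma adjusted p 0.425), or 0.27 without lymphoma 1.

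Only Cd5l among the 27 genes had a larger difference than any C1q chain, each chain read by its brightest probe set. On 1417063_at the C1qb difference, at 2.66, was above that of Cd5l. Cd5l, which encodes a secreted protein of tissue macrophages, stood at 11.74, 11.83, 10.34, 9.99 and 9.93 in lymphomas, against 9.19, 7.65, 8.01 and 7.89 in wild-type spleens. Its difference of 2.58 missed the threshold (limma adjusted p 0.0531), and its highest arrays were lymphomas 1 and 2 rather than lymphoma 5. The mean of the C1q chains less the mean of the macrophage list was 1.41, 1.28, 1.19, 1.38 and 1.99 in lymphomas 1 to 5, against values between -0.17 and 0.28 in wild-type spleens. Since the chains were chosen for their high values in lymphoma, nothing is read from this excess. On its other probe set Axl, a receptor for the uptake of dying cells, differed by -0.15 (limma adjusted p 0.414), against 0.78 on the one used. Siglec1, a lectin of marginal metallophilic macrophages, also has probe sets that disagree. The probe set that stands for it differed by -0.06, while the other 2 were called lower in the fit over all probe sets, at -0.81 and -1.36 (limma adjusted p 0.0487 and 0.0129). Fcgr1, another of the 27 genes, differed by 0.14 on the probe set used and by 1.37 on its other, which was called in the fit over all probe sets. The called genes Ms4a7 and Sirpa differed by as little as 0.30 and 0.20 on other probe sets. Cd5l, Siglec1 and Fcgr1 were singled out after their values were seen.

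The count of macrophage calls changed when single arrays were left out, as did the count over all genes. It was 15 without lymphoma 2, 3 without lymphoma 5, 2 without wild-type spleen 1 and 1 without wild-type spleen 2, 3 or 4. It was 15 without lymphomas 1 and 2 together, an alternative chosen after the data were seen, and 0 by an unequal-variance test. Over all genes the 130 calls became 328 without lymphoma 2 and 34 without lymphoma 5. They became 36, 10, 14 and 18 without wild-type spleens 1 to 4, and 0 by the unequal-variance test. Before adjustment 18 of the 27 macrophage genes had p under 0.05 by limma, and 18 by the unequal-variance test. That limma count was 17 to 20 with 1 array left out.

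Genes described as acting on C1q transcription, or on macrophage gene expression at large, gave 2 calls among 14 measured, both higher, against 0.407% of all genes called higher. These were Pparg and Nr1h3, nuclear receptors for lipids that act in macrophages. Pparg stood at 7.70, 6.85, 6.75, 6.96 and 7.27 in lymphomas, against 5.95 to 6.03 in wild-type spleens, and rose by 1.12 ± 0.18 (SE, limma adjusted p 0.0292). Its probe set is dim, with wild-type values below the array medians of 6.88 to 6.97. It was removed when dim probe sets were left out. Nr1h3, which encodes LXR alpha, stood at 8.12, 8.60, 8.02, 8.01 and 8.41 in lymphomas, against 7.45 to 7.57 in wild-type spleens, and rose by 0.71 ± 0.13 (SE, limma adjusted p 0.0449). Both calls were lost without lymphoma 5 or any wild-type spleen, and that of Nr1h3 also without lymphoma 1 (limma adjusted p 0.051). The count was 3 without lymphoma 2 or 4, 2 without lymphoma 1 or 3, and 0 without lymphoma 5 or any wild-type spleen. Maf, a transcription factor of mature macrophages, had groups that did not overlap and a difference of 0.53 that did not pass (limma adjusted p 0.136). Spi1, which encodes PU.1, overlapped between the groups at 9.28 to 10.24 in lymphomas and 9.31 to 9.85 in wild-type spleens, with a difference of 0.19 (limma adjusted p 0.673), or 0.06 without lymphoma 1. Il10, a cytokine that alters macrophages, had a difference of 1.68 that did not pass (limma adjusted p 0.0637) and was singled out after its values were seen. The median difference of the 14 genes was 0.23.

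The proteases and regulators that work with C1q all differed by less than the C1q chains. The chains were chosen for their high values in lymphoma, so nothing is read from that. Among 11 measured genes of the classical pathway 0 were called by limma, against 0.715% of all genes called in either direction. Before adjustment 2 were higher and 0 lower at p under 0.05, against 14.7% of all genes in either direction, and the median difference was 0.28. With dim probe sets left out 7 of the 11 genes stayed, again with 0 called. C1ra, the protease C1r that C1q activates, stood at 9.64, 9.01, 10.21, 10.03 and 10.18 in lymphomas, against 9.45 to 9.65 in wild-type spleens. Lymphoma 2 lay below all wild-type spleens and lymphomas 3 to 5 above them, and the difference of 0.28 did not pass (limma adjusted p 0.614). Serping1, the inhibitor of C1r and C1s, stood at 11.97, 11.50, 12.46, 12.14 and 12.54 in lymphomas, against 11.42 to 11.53 in wild-type spleens, a difference of 0.62 (limma adjusted p 0.184). Cd59a, which blocks the membrane attack complex, had the largest difference of the list at 0.70 (limma adjusted p 0.405), or 0.43 without lymphoma 1.

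The count of classical pathway calls changed with lymphoma 2. It was 2 without that array, when Serping1 passed with a difference of 0.78 (limma adjusted p 0.0247). Without lymphomas 1 and 2 it was 3, with C1ra at 0.61, C2 at 0.49 and Serping1 at 0.88 (limma adjusted p 0.0106, 0.0252 and 0.0054). C2 is the protease that C1s cleaves beside C4. Over the 3 remaining lymphomas the largest of these differences was below that of any C1q chain, which ranged from 2.02 to 2.74 over the 5 probe sets in the same arrays. Nothing is read from this gap either, given how the chains were chosen.

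Proteins that bind C1q or help to take up cells coated with it gave 0 calls among 12 genes, against 0.715% of all genes called in either direction. Before adjustment 5 were higher and 1 lower at p under 0.05, against 14.7% of all genes in either direction, and the median difference was 0.34. Lrp1, an uptake receptor that works with calreticulin, stood at 10.56, 9.12, 9.21, 9.00 and 9.43 in lymphomas, against 7.97, 7.67, 8.43 and 8.59 in wild-type spleens. The groups did not overlap, and the difference of 1.30 did not pass (limma adjusted p 0.11). Cr2, a complement receptor of B cells and follicular dendritic cells, stood at 10.73, 12.06, 12.44, 12.34 and 12.29 in lymphomas, against 13.13 to 13.27 in wild-type spleens, the opposite direction to C1q. Its difference of -1.25 did not pass over all arrays (limma adjusted p 0.113), but did without lymphoma 1, at -0.94 (limma adjusted p 0.0107). Calr, which encodes calreticulin, differed by 0.42 (limma adjusted p 0.489), or 0.66 without lymphoma 4. Cd93, a receptor once taken for a C1q receptor, differed by 0.13 (limma adjusted p 0.873), or by -0.12 without lymphoma 1. The count was 2 without lymphoma 2, 1 without lymphoma 1 and 4 without both, when Lrp1, Lair1, Gas6 and Cr2 passed.

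Among proteins built like C1q in part, the large values belonged to few genes. A list of 13 genes covered proteins with a collagen-like region that recognise microbes or cell debris, and the lectin pathway proteases Masp1 and Masp2. Of these 13 limma called Fcna higher and Marco lower, against 0.407% and 0.308% of all genes called higher and lower. Fcna, the ficolin of mouse spleen and liver macrophages that starts the lectin pathway, stood at 11.08, 11.26, 10.24, 10.65 and 10.23 in lymphomas, against 8.88, 8.40, 9.07 and 9.23 in wild-type spleens, and rose by 1.79 ± 0.25 (SE, limma adjusted p 0.0221). Marco, with which marginal zone macrophages bind bacteria, stood at 10.04, 9.89, 10.22, 10.76 and 9.96 in lymphomas, against 11.61, 11.66, 11.90 and 12.10 in wild-type spleens, and fell by 1.64 (SE 0.18, limma adjusted p 0.00816). On its other probe set Marco differed by -0.28 (limma adjusted p 0.442). Fcna lost its call without any wild-type spleen (adjusted p 0.0591 to 0.103) and Marco only without wild-type spleen 3 (0.0545). The median difference of the 13 genes was 0.13. With dim probe sets left out 5 of the 13 genes stayed, and Fcna and Marco kept their calls.

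Among 23 other genes whose proteins carry a C1q domain 0 were called by limma, against 0.715% of all genes called in either direction. Most were read by dim probe sets: with these left out 8 of the 23 genes stayed, again with 0 called. RMA compresses differences near background, so a small difference on a dim probe set does not show an unchanged level. Before adjustment 4 were higher and 0 lower at p under 0.05, against 14.7% of all genes, and their median difference was 0.13. The largest differences were those of Emilin2, a matrix protein, at 1.66 (limma adjusted p 0.36), and C1qtnf12, a relative of adiponectin, at 1.14 (limma adjusted p 0.5). Both genes were highest in lymphomas 1 and 2. Without these arrays the differences were 0.49 for Emilin2 and -0.0085 for C1qtnf12. Emilin2 stood at 11.77, 10.77, 8.40, 7.44 and 9.19 in lymphomas, against 7.61 to 8.27 in wild-type spleens, and its difference was 1.10 without lymphoma 1 and 2.18 without lymphoma 4. C1qtnf12 stood at 12.25, 12.29, 9.35, 9.06 and 9.79 in lymphomas, against 9.02 to 9.85 in wild-type spleens, and its difference was 0.70 without lymphoma 2. The count was 1 without lymphomas 1 and 2 (C1qtnf7, at 0.66). The plot of the lists shows the C1q chains to the right of nearly all these genes. Nothing is read from this, since the chains were chosen for their high values in lymphoma.

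**Figure D3:**
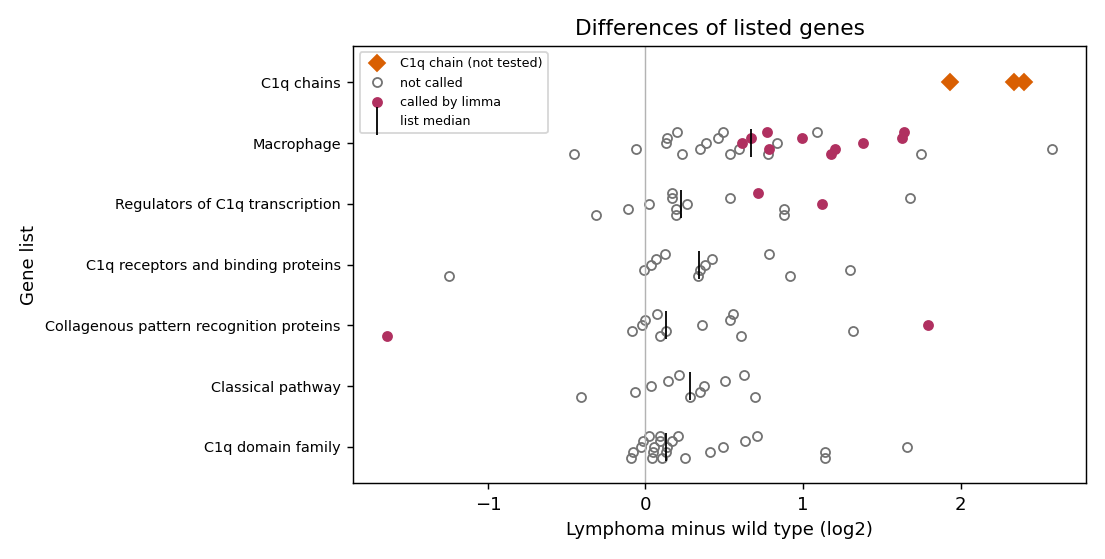
Differences of lymphoma minus wild type (log2, horizontal axis) for the 3 C1q chains (diamonds, not tested) and the genes of 6 lists (circles, filled where limma called the gene), with list medians as bars. The C1q chains (brightest probe set each) lie at 1.93 to 2.40, and Cd5l at 2.58 is the only listed gene to their right.

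The genes whose profile over the 9 arrays was most like that of C1q were sought by distance. Each gene was set against its own wild-type mean, and the root mean square distance to the mean of the C1q chains was taken over all arrays. On this measure the chains themselves lay 0.25 (C1qa), 0.18 (C1qb) and 0.14 (C1qc) from their mean. The closest other gene was Ms4a6d, a membrane protein of the MS4A family found on myeloid cells, at 0.26. It stood at 9.76, 8.30, 8.35, 8.90 and 9.31 in lymphomas, against 7.17, 6.79, 6.74 and 6.53 in wild-type spleens. The next were Wfdc17, a secreted protein of activated macrophages, and the growth factor gene Pdgfc, both at 0.41. Wfdc17 stood at 11.84, 10.34, 10.57, 11.64 and 11.14 in lymphomas, against 9.36, 9.24, 8.64 and 8.35 in wild-type spleens.

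The other genes of the closest 10 were more distant. Clec4n, which encodes the fungal receptor dectin-2, lay at 0.48, Clec1b, a receptor of platelets and myeloid cells, at 0.56, Fcgr3 at 0.56 and Fcna at 0.60. Clec4a3, another myeloid lectin receptor, lay at 0.63, Gzmk, a granzyme of activated T cells, at 0.64 and Gpx3, a secreted peroxidase, at 0.65. These genes were picked for their likeness to C1q, so nothing is read from their difference between the groups, which ranged from 1.49 for Clec4a3 to 3.0 for Gzmk. When the genes were ranked by correlation with C1q after each group's mean was removed, 0 of the 10 were among the closest 10. In the closest 10% of all genes were 7 of them, with Ms4a6d at rank 38 and Gzmk at rank 128. The rest were Gpx3 at rank 4468, Clec4n at 9660 and Fcna at 11876, with correlations of 0.30, -0.0017 and -0.14. With 1 array left out, 6 to 9 of the 10 stayed among the closest 10, 6 of them without lymphoma 4.

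**Figure D4:**
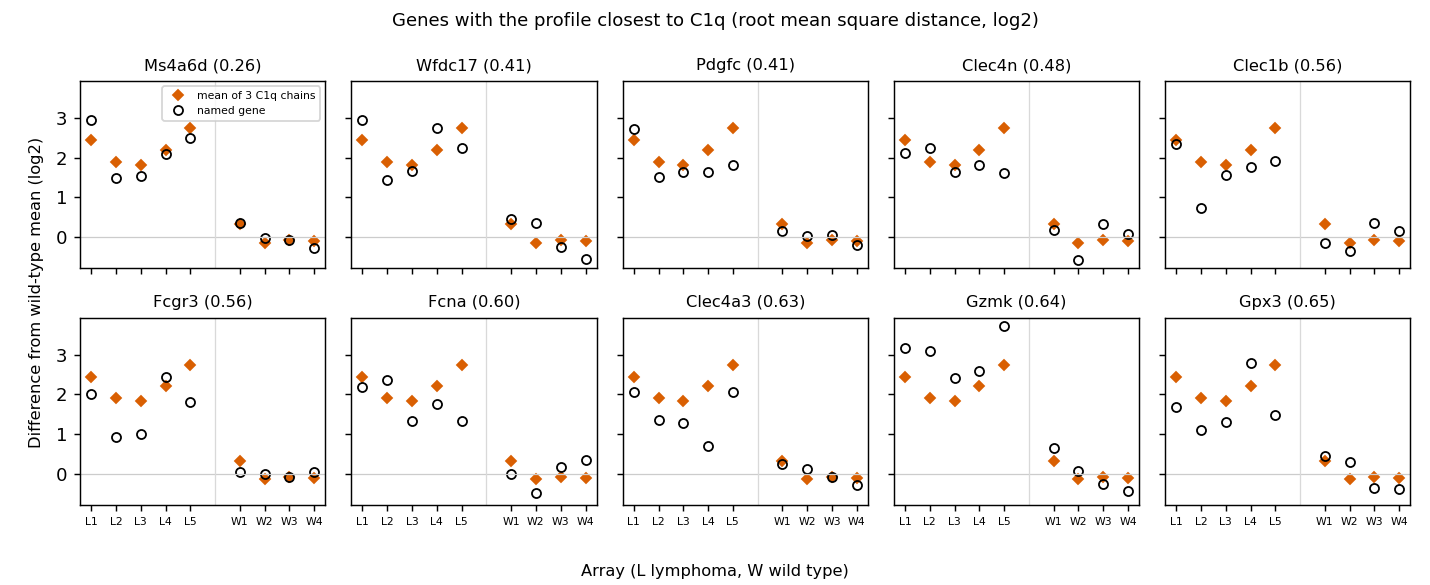
Difference from the wild-type mean (log2, vertical axis) in lymphomas 1 to 5 (L) and wild-type spleens 1 to 4 (W) for the mean of the C1q chains (diamonds) and for each of the 10 closest genes (circles), with the distance in brackets. Ms4a6d, at 0.26, lies closest to the chains, while Gzmk lies above them in every lymphoma.

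Markers of other cells were set beside C1q, as the mean log2 level of each list over its measured genes. RMA values have no true 0, so no marker can be called absent. The 8 neutrophil markers averaged 13.29, 9.89, 8.87, 7.21 and 9.89 in lymphomas 1 to 5, against 6.88 to 7.61 in wild-type spleens. Lymphoma 4 lay within the wild-type range and the other 4 lymphomas above it. The C1q mean of lymphoma 4 was 2.20 above the wild-type mean. The 4 erythroid markers averaged 11.05 and 10.83 in lymphomas 1 and 2 and 8.39, 5.50 and 7.58 in lymphomas 3 to 5, against 6.41 to 8.35 in wild-type spleens. Without lymphomas 1 and 2 the C1q differences were 2.02 for C1qa, 2.44 for C1qb and 2.31 for C1qc, against 1.93, 2.40 and 2.34 over all lymphomas. The 4 monocyte markers averaged 10.21, 7.71, 7.76, 6.18 and 8.03 in lymphomas 1 to 5, against 6.38 to 7.0 in wild-type spleens. They were above all wild-type spleens in 4 of 5 lymphomas and below them in lymphoma 4. The part of neutrophils, erythroid cells and monocytes in the C1q result was not tested.

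The 6 macrophage markers, all among the 27 macrophage genes above, averaged 10.61 to 11.25 in lymphomas, against 9.94 to 10.25 in wild-type spleens. These averages did not overlap, though those of Csf1r and Adgre1 taken singly did. The part of macrophages in the C1q result was not tested. The 5 dendritic cell markers averaged 7.86 to 8.37 in lymphomas, against 8.28 to 8.60 in wild-type spleens. The 6 stromal markers averaged 9.85 to 10.86 in lymphomas, against 10.13 to 10.30 in wild-type spleens, and the 4 endothelial markers 8.16 to 9.16, against 8.41 to 8.84. The 3 pancreatic markers averaged 7.05 to 7.87 in lymphomas, against 6.67 to 6.83 in wild-type spleens, through Cela1 (7.77 to 10.20, against 6.80 to 7.41), and their part was not tested. The 6 B-cell markers averaged 11.97 to 12.87 in lymphomas, against 12.68 to 12.85 in wild-type spleens. The 5 T-cell markers averaged 9.17 and 9.01 in lymphomas 1 and 2 and 10.22 to 10.37 in the others, against 10.27 to 10.53 in wild-type spleens. The 2 fat markers averaged 4.60 to 4.80 in lymphomas, against 4.40 to 4.71 in wild-type spleens.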

How the data were processed

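Spleen RNA was labelled with biotin and hybridised, per the labels' protocols, to Affymetrix mouse arrays. The submitters' processing notes name RMA, which gives the deposited log2 values. No version of it is given in the sources used here. The method corrects background, normalizes between arrays and compresses differences near background. Array medians lay between 6.88 and 6.97. Of 45101 probe sets, 64 controls were left out. Names came from the platform annotation: 34958 probe sets had 1 symbol, 932 more than 1 and 9211 none, and only those with 1 were named. RefSeq changed 0 symbols. Each of 18193 genes was read by its probe set with the highest mean.

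Lymphoma minus wild type was fitted with limma 3.58.1 in R 4.3.3 (lmFit, eBayes, two-sided, Benjamini-Hochberg over all genes, adjusted p under 0.05), with no covariate or filter. The members, gene lists and motifs were chosen with earlier results of these data known. Of the listed genes, 7 of the classical pathway, 2 regulators and 2 with a C1q domain were not analysed here. Named were the C1q chains, up to 4 called genes a list by size of difference or else the 2 largest, fixed genes of interest, and the 10 closest profiles. Ms4a7, Axl, Vcam1, Sirpa, Ctsb, Cd5l, Siglec1, Fcgr1, Il10, C2, Lair1, Gas6, C1qtnf7 and Cela1 were added after their values were seen. Tried as alternatives were leaving out dim probe sets, quantile normalization, median centring, an intensity trend, array weights, an unequal-variance test, other probe sets a gene, the replicate number as a block and leaving out arrays.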

Additional observations from a re-analysis of the deposited data

Results flagged for a closer look

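Of 70 sets of values checked (the C1q probe sets and the named genes, in each group), 5 held an array far from the rest of its group, and chance alone flags about 1 in 20. None was a C1q probe set. Lymphoma 1 was high for Lrp1, at 10.56 with the next lymphoma at 9.43, and for Pdgfc, at 9.16 with the next at 8.25. The same array was low for Cr2, at 10.73 with the next at 12.06. In wild-type spleens the gaps were small: Serping1 stood at 11.42 in spleen 1 with the next at 11.52, and Hmox1 at 8.70 in spleen 2 with the next at 8.81.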

How the results depend on the processing

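The C1q differences kept their direction, and moved by less than the SD between arrays, under quantile normalization, median centring, the replicate block and with any array left out. With 1 array left out they ranged from 1.82 to 2.03 for C1qa, from 2.22 to 2.46 for C1qc, and for the C1qb probe sets from 2.41 to 2.96 (1417063_at), 2.04 to 2.43 (1434366_x_at) and 2.24 to 2.56 (1437726_x_at). Calls depended far more on the setting. Over all genes limma called 130, against 532 with array weights, 0 by the unequal-variance test (2384 before adjustment at p under 0.05, and 2673 by limma), 601 without lymphomas 1 and 2, and 10 to 328 with 1 array left out. Array weights gave 1 classical pathway, 4 C1q receptor, 1 C1q domain and 4 regulator calls. Leaving out lymphomas 1 and 2 gave 3, 4, 1 and 4. The unequal-variance test gave 0 macrophage, 0 regulator and 0 collagenous protein calls. The regulator count was 1 with dim probe sets left out, with median centring, with an intensity trend and in the fit over all probe sets. With 1 array left out the counts ranged from 0 to 2 (classical pathway), 0 to 2 (receptors), 0 to 0 (C1q domain), 0 to 2 (collagenous proteins), 1 to 15 (macrophage) and 0 to 3 (regulators). Cd93 reversed without lymphoma 1 (-0.12, and up to 0.30 without lymphoma 4), and without lymphomas 1 and 2 so did Cd93 (-0.14) and C1qtnf12 (-0.0085). The closest profiles shared 6 to 9 of 10 genes with 1 array left out and 0 when ranked within groups. The cause of these changes was not tested.

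Replicate numbers are shared by the groups, and the labels do not say whether they pair the samples. Deviations of same-numbered arrays correlated at 0.118, -0.201, 0.141 and 0.004. With so few arrays these values cannot decide whether a weak pairing exists, so pairing is left unknown. With the replicate block, to which lymphoma 5 adds nothing, limma called 7 genes in all, 1 macrophage, 1 collagenous protein and 0 regulator genes, and the C1q differences were 1.82 (C1qa), 2.50, 2.07 and 2.24 (C1qb) and 2.22 (C1qc).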
